A study of Rattus norvegicus and Mus musculus with 56 samples.

Results

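Messenger RNA of the operated side of the lumbar dorsal horn was compared between male mice with a nerve injury and male mice with a sham operation. In spared nerve injury (SNI), part of the sciatic nerve is severed while another branch stays connected, and the paw becomes hypersensitive to touch and cold. The comparison took every library labelled as mouse, male and ipsilateral, which is 6 of the 56 libraries of the series (24 mouse and 32 rat), 3 from SNI and 3 from sham surgery. All 6 came from wild-type C57BL/6 males, the dorsal horn was taken 7 days after surgery, and polyadenylated RNA was sequenced. The labels give no details of the sham operation. Age, the number of animals in a library and which libraries share an animal are not given in the labels, so p-values measure the spread between libraries.

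Sensory fibres of the sciatic nerve end in the lumbar dorsal horn, and motor neurons whose axons run in the same nerve lie in the neighbouring ventral horn. A neuron whose axon is cut switches on a regeneration programme led by the transcription factor Atf3 and secretes the cytokine Csf1. Csf1 acts on the receptor Csf1r of microglia, the phagocytes that live in brain and spinal cord, which multiply, cluster around the injured terminals and release mediators that alter the excitability of pain-transmitting neurons. Mouse studies have linked microglial signalling to pain hypersensitivity in males in particular.

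The SNI libraries held 27.98 to 32.63 M reads on genes and the sham libraries 30.14 to 31.18 M. Levels are given as CPM, the usual rate of reads per M gene reads after scaling of the library sizes (M stands for mega), and a gene was called when limma's Benjamini-Hochberg adjusted p was under 0.05. In counts of list members, rose stands for called higher. The tissue markers fitted the labels. The Y-linked gene Ddx3y stood at 89.7 to 113 CPM in the 6 libraries, and Xist, the RNA that silences an X chromosome in females, at 0.271 to 2.34 CPM, against 531 to 942 CPM in the 12 female libraries. Markers of astrocytes, oligodendrocytes and excitatory and inhibitory dorsal horn neurons were present in all 6. Scn10a and Scn11a, sodium channel genes of dorsal root ganglion neurons, had 0 to 5 reads in a library. The motor neuron gene Chat was present at 8.85 to 31.1 CPM. Sham replicate 1 stood apart in markers of motor neurons and of blood. The summed level of 18 motor neuron markers was 469, 421 and 571 CPM in SNI libraries and 737, 314 and 279 CPM in sham libraries. The summed level of 8 red cell markers was 236, 215 and 243 CPM in SNI libraries and 534, 284 and 325 CPM in sham libraries. Their part in the results was not tested beyond the fits given beside them.

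Far more genes were higher than lower in SNI libraries. Of 18058 genes tested, 389 were called, which is 2.15%, and of these 371 were higher (2.05%) and 18 lower (0.0997%). The genes called higher had a median log2 fold change of 0.88, with 153 of them past 2-fold and 33 past 4-fold. In 370 of the 371 all 3 SNI libraries lay above all 3 sham libraries, a separation seen upward in 1930 genes (10.7%) and downward in 1540 (8.53%). Protein-coding genes made up 363 of the 371, against 15446 of all 18058 genes tested. In sham libraries 53 of the 371 averaged under 1 CPM, against 3187 of the 18058. The genes called lower had a median of -0.32. SNI replicates 2 and 3 belong to the libraries titled 49 to 56, and no male sham library does. Reads on genes were 76.11% and 75.55% of all entries in them, 74.68% in SNI replicate 1 and 73.96% to 74.03% in sham libraries. Whether these titles differ as a batch was not tested, and they are partly confounded with SNI here. With a term for them 318 genes were called higher. Without them SNI replicate 1 stood alone against the 3 sham libraries, too few to test the calls. Leaving out SNI replicate 2, SNI replicate 3 or sham replicate 3 gave 245, 220 and 231 genes called higher.

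**Figure D1:**
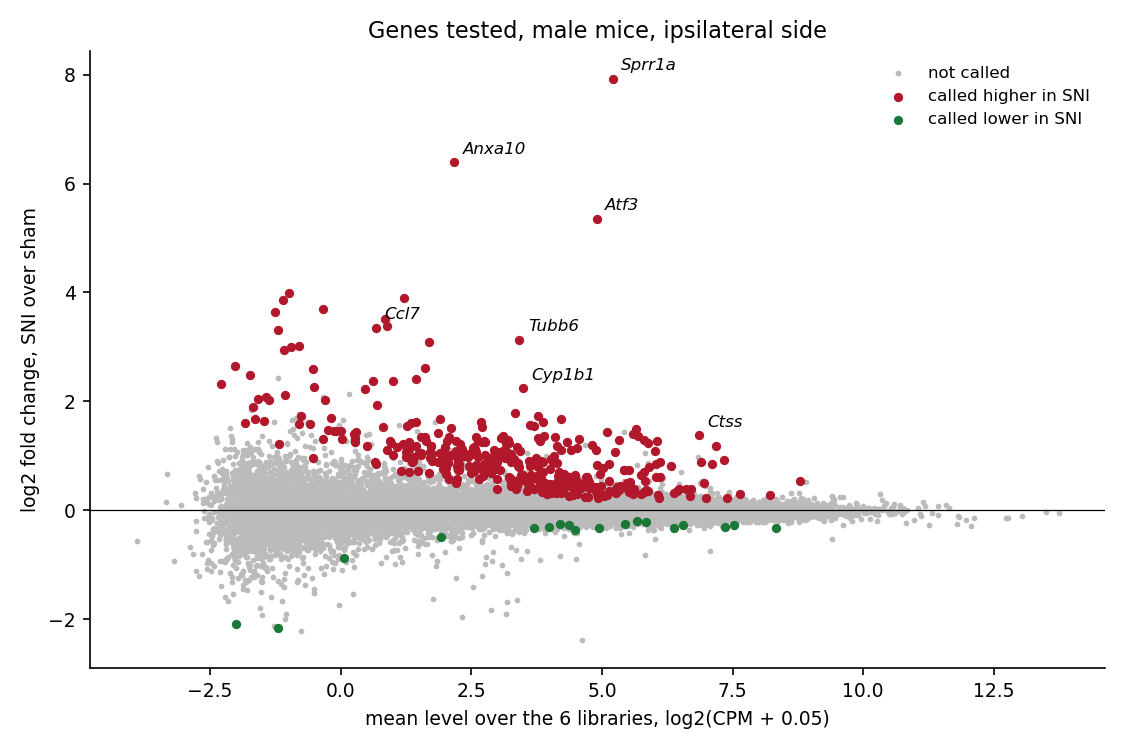
Each point is 1 of the 18058 genes tested, with its mean level over the 6 male ipsilateral libraries on the x axis (log2(CPM + 0.05)) and its log2 fold change of SNI over sham on the y axis. Red points are the 371 genes called higher, most of them within 2-fold, with Sprr1a, Anxa10 and Atf3 at the top, and green points are the 18 called lower.

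Genes that neurons switch on after their axon is cut stood at the top of the list. Sprr1a, a small proline-rich protein of the skin barrier that injured neurons also make, was at 76.1, 85.4 and 58.5 CPM in SNI libraries and at 0.102, 0.514 and 0.224 CPM in sham libraries. Its reads numbered 2501, 2409 and 1869 in SNI libraries and 3, 16 and 7 in sham libraries, and its log2 fold change was 7.92 (SE 1.34, limma adjusted p = 0.00243). Every SNI library was thus over 100 times above every sham library. Atf3 (ENSMUSG00000026628, chromosome 1, 191170296 to 191218039 on GRCm38, minus strand) was at 74.5, 55.3 and 45.3 CPM in SNI libraries and at 1.49, 1.32 and 1.22 CPM in sham libraries, with a log2 fold change of 5.35 (SE 0.77, adjusted p = 0.000498). Anxa10, an annexin that binds membranes in the presence of calcium, was at 11.8, 7.62 and 7.2 CPM in SNI libraries and at 0.0678, 0.0321 and 0.0321 CPM in sham libraries, a log2 fold change of 6.40 (SE 1.03, adjusted p = 0.000859). Sprr1a and Anxa10 were nearly silent in sham libraries, whereas Atf3 had a low level there. With voom weights the calls of Sprr1a and Anxa10 were lost (adjusted p = 0.285 and 0.119), and likewise when only the 12 ipsilateral libraries were fitted (adjusted p = 0.0656 and 0.0724). Their standard errors draw on the spread of all mouse libraries. Without female SNI replicate 1 the SE was 0.75 for Sprr1a, 0.25 for Atf3 and 0.55 for Anxa10. That library was left out after its low Atf3 and Sprr1a were seen. The smaller SEs follow from that choice and cannot count as support for these calls.

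Of the 26 axon injury genes tested, 10 were called higher, against 2.05% of all genes, and none was called lower. Beside Sprr1a and Atf3 the 10 were Gpr151, Gal, Gadd45a, Ecel1, Csf1, Npy, Sox11 and Jun. The median log2 fold change of the 26 was 0.57 against 0.00 over all genes tested. The orphan receptor gene Gpr151 stood at 7.24, 4.39 and 5.51 CPM in SNI libraries and at 0.305, 0.771 and 0.898 CPM in sham libraries (log2 fold change 3.09, SE 0.36, adjusted p = 8.7e-06). Gal, the neuropeptide galanin, stood at 23.2, 25.3 and 17.4 CPM in SNI libraries and at 5.49, 9.35 and 6.76 CPM in sham libraries, a log2 fold change of 1.62 (SE 0.26, adjusted p = 0.000825). Neither gene's groups overlapped. Npy, neuropeptide Y, stood at 24.99, 22.5 and 19.2 CPM in SNI libraries and at 10.2, 16.2 and 15.3 CPM in sham libraries, a smaller rise of 0.69 (SE 0.15, adjusted p = 0.0144). The peptidase gene Ecel1 rose by 0.80, the stress gene Gadd45a by 0.95, the growth-linked transcription factor gene Sox11 by 0.63 and the transcription factor gene Jun, a partner of Atf3, by 0.54 on the log2 scale. The calls of Npy, Sox11 and Jun were each lost when some of the libraries were left out 1 at a time, with adjusted p of up to 0.108, 0.160 and 0.0925. The fit without the libraries titled 49 to 56 kept only SNI replicate 1, so its count of calls is not given. In it the log2 fold changes of Atf3 and Gpr151 were 5.74 and 3.46.

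Of the 16 members not called, 6 had log2 fold changes at or under 0, and the lowest, Arg1 at -0.90, had all SNI libraries below all sham libraries. Others were higher in every SNI library without being called. The membrane-binding annexin gene Anxa2 stood at 78.8, 76.6 and 71.7 CPM in SNI libraries and at 52.1, 36.2 and 25.5 CPM in sham libraries, and the galectin gene Lgals1 at 49.03, 52.7 and 52.6 CPM in SNI libraries and at 37.1, 22.9 and 16.8 CPM in sham libraries. Sham replicate 1, the library highest in motor neuron markers, was the highest sham library for both. Cacna2d1, the calcium channel subunit that gabapentin binds, overlapped between groups at 139, 129 and 132 CPM in SNI libraries and 113, 147 and 143 CPM in sham libraries (log2 fold change -0.0048, SE 0.12). The 18 motor neuron markers had none called, against 2.15% of all genes, and a median of -0.07. Chat stood at 13.5, 11.1 and 18.4 CPM in SNI libraries and at 31.1, 10.4 and 8.85 CPM in sham libraries. With the motor neuron level as a covariate Atf3 stood at 5.38 (adjusted p = 0.000602) and Sprr1a at 8.002 (adjusted p = 0.00183), and without sham replicate 1 at 5.43 (adjusted p = 0.00304) and 7.49 (adjusted p = 0.0177).

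Sprr1a (ENSMUSG00000050359, chromosome 3, 92483952 to 92485895 on GRCm38, minus strand) lies in the epidermal differentiation complex, a cluster of skin barrier genes. Within 1 megabase on either side 7 other genes were tested, and 3 were called, all higher. All 3 were at 0.0339 CPM or less in sham libraries and passed the count filter through other libraries. The 2.05% of all genes called higher is therefore no fair measure beside them. These neighbours were chosen for mention once their values were known. Sprr2j-ps, a pseudogene of the same family (92418082 to 92419396), was at 0.852, 0.780 and 0.845 CPM in SNI libraries and at 0 in each sham library. Lce1g, a late cornified envelope gene (92750148 to 92752338), was at 0.883, 0.815 and 0.563 CPM in SNI libraries and at 0.0339, 0 and 0.0321 CPM in sham libraries. Tchhl1, a relative of trichohyalin (93468754 to 93471980), was at 0.365, 0.319 and 0.469 CPM in SNI libraries and at 0, 0 and 0.0321 CPM in sham libraries. Of the 4 neighbours not called, the predicted gene Gm9774 had all SNI libraries below all sham libraries, at 0.487, 0.638 and 0.313 CPM in SNI libraries and 0.746, 0.675 and 0.930 CPM in sham libraries. The other 3 overlapped between groups, among them Lor, the barrier protein loricrin, at 5.81, 6.84 and 5.38 CPM in SNI libraries and 5.73, 5.65 and 6.86 CPM in sham libraries.

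The remaining genes with the largest rises had varied functions. Fst, the secreted activin inhibitor follistatin, was at 5.24, 3.12 and 4.47 CPM in SNI libraries and at 0.271, 0.161 and 0.256 CPM in sham libraries (log2 fold change 3.89, SE 0.45, adjusted p = 7.2e-06). Tubb6, a beta tubulin, was at 20.7, 20.4 and 16.2 CPM in SNI libraries and at 2.14, 3.25 and 1.35 CPM in sham libraries (3.13, SE 0.54, adjusted p = 0.00237). Cyp1b1, a cytochrome P450 enzyme, was at 19.8, 18.3 and 17.1 CPM in SNI libraries and at 3.90, 4.98 and 2.92 CPM in sham libraries (2.24, SE 0.26, adjusted p = 1.4e-05). In all 3 the lowest SNI library was at least 3 times the highest sham library. Receptors and transporters in this group were Procr, the protein C receptor (log2 fold change 2.61), F2rl1, a protease-activated receptor (2.59), Adgrd1, an adhesion receptor (2.41), and Slc6a19, a transporter of neutral amino acids (3.52). When only the 12 ipsilateral libraries were fitted, the calls of Tubb6 and Ankrd1 were lost (adjusted p = 0.0721 and 0.0551). Ankrd1, an ankyrin repeat cofactor of transcription, rose by 3.70, Cryba2, a crystallin, by 2.38, and AA467197 by 2.02. Mettl7a3, a methyltransferase-like gene, rose by 3.39, and Timp1, an inhibitor of matrix metalloproteinases, by 2.22, but these calls were lost in some fits without 1 library (adjusted p of up to 0.108 and 0.0799).

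**Figure D2:**
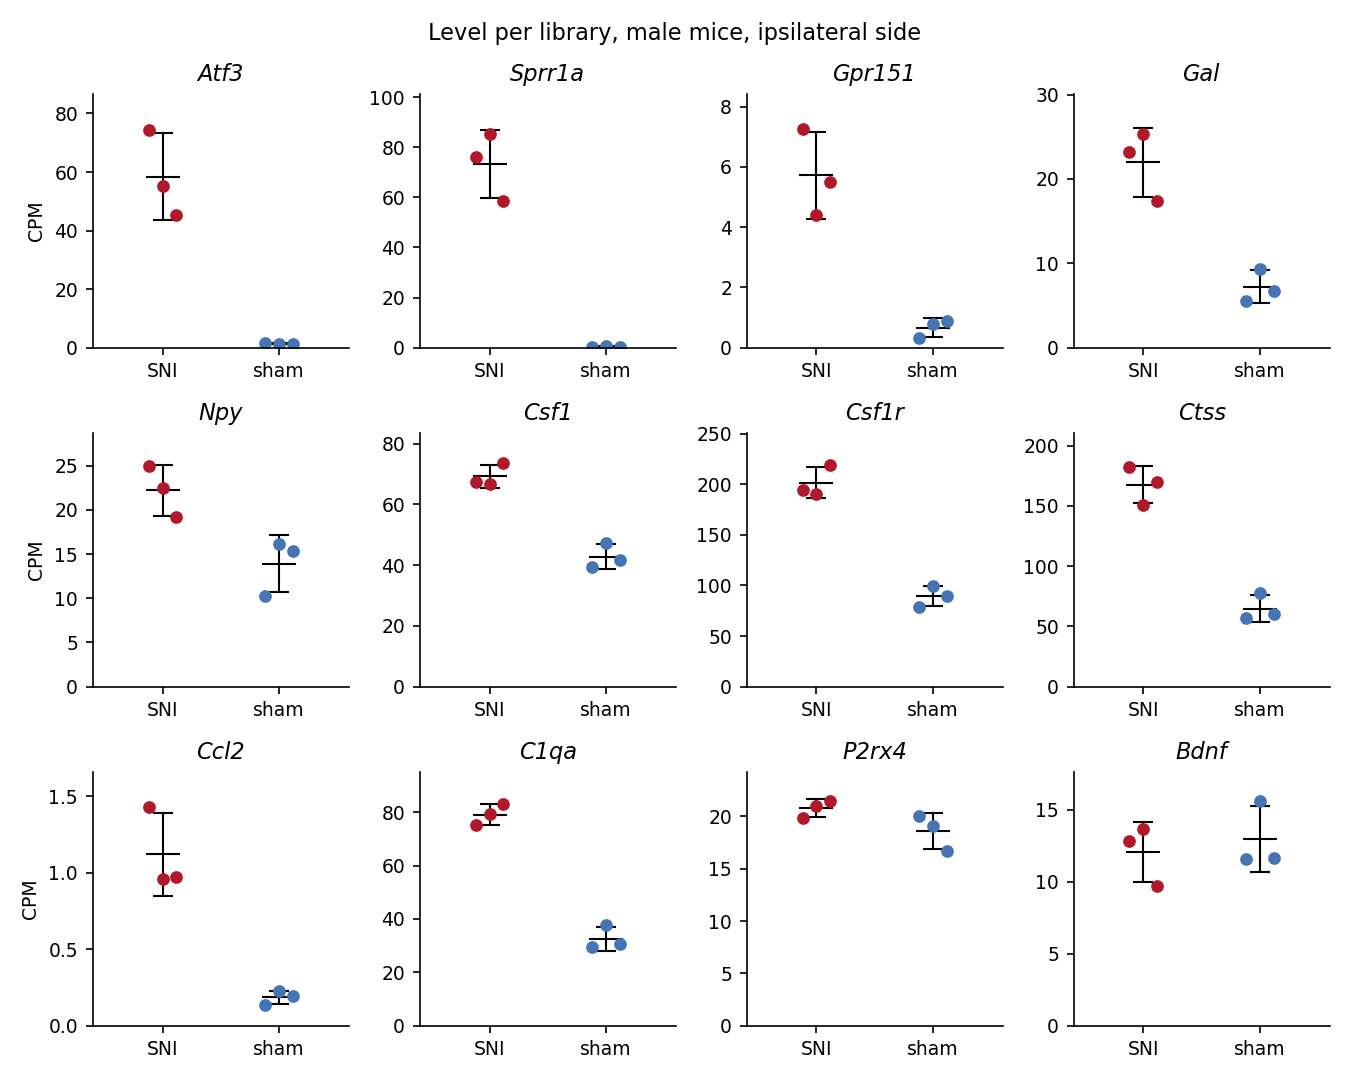
CPM of 12 genes in each male ipsilateral library, SNI (red) on the left and sham (blue) on the right of each panel, with the mean and SD over the 3 libraries as black lines. Groups are separate for the first 10 genes, from Atf3 at 45.3 CPM or more in SNI libraries to C1qa, and overlap for P2rx4 and Bdnf.

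Microglial genes formed the most uniform group. Of 20 microglia identity genes tested, 19 rose, against 2.05% of all genes, and for all 20 the SNI libraries lay above the sham libraries, against 10.7% of all genes. The median log2 fold change was 1.19. In bulk tissue more cells of a type and more RNA per cell cannot be told apart. The summed level of the 20 genes was 1187, 1087 and 1272 CPM in SNI libraries and 494, 599 and 545 CPM in sham libraries. Ly86, a partner of Toll-like receptor relatives, had the largest rise at 1.67, and Sall1, the transcription factor that keeps microglial identity, the smallest value at 0.30, which was not called. Tmem119 stood at 38.8, 34.9 and 42.6 CPM in SNI libraries and at 14.6, 20.1 and 16.03 CPM in sham libraries (log2 fold change 1.20, SE 0.13, adjusted p = 2.9e-06). The nucleotide receptor gene P2ry12 stood at 46.4, 39.6 and 49.6 CPM in SNI libraries and at 23.2, 24.9 and 27.1 CPM in sham libraries, a smaller rise of 0.85 (SE 0.11, adjusted p = 4.1e-05). Cx3cr1, the fractalkine receptor, rose by 1.08, Itgam, the integrin CD11b, by 1.50, Irf8, a transcription factor of the lineage, by 1.23, and Aif1, the cytoskeletal marker Iba1, by 1.04. The Aif1 call was lost in 3 of the 6 fits without 1 library (adjusted p of up to 0.0872). The fit without the libraries titled 49 to 56 kept only SNI replicate 1 of the male SNI libraries. That is too few to test these calls, so its count is not given.

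Csf1 and its receptor gene Csf1r were both higher in SNI libraries, and which cells made either RNA was not tested. Csf1 (chromosome 3, 107741048 to 107760469) was at 67.3, 66.8 and 73.6 CPM in SNI libraries and at 39.3, 47.4 and 41.6 CPM in sham libraries, a log2 fold change of 0.70 (SE 0.12, adjusted p = 0.00200). Csf1r was at 195, 191 and 219 CPM in SNI libraries and at 79.0, 99.4 and 90.0 CPM in sham libraries, a log2 fold change of 1.17 (SE 0.11, adjusted p = 1.2e-06). Neither gene's groups overlapped, while Il34, the other ligand of the receptor, was not called at 0.14. Exons of other genes overlap 15.1% of the exon length of Csf1r, so with the strand setting of the counting not given some reads there cannot be assigned. Of the 12 genes of the colony stimulating factor axis, 8 rose, against 2.05% of all genes, with a median of 1.03. Trem2, a lipid receptor, rose by 1.36, its adaptor Tyrobp by 0.95, and Inpp5d, a phosphatase that damps the pathway, by 1.11. Csf3r and Csf2rb, receptors for other colony stimulating factors, rose by 1.32 and 1.18, the second with an adjusted p of up to 0.192 when 1 library was left out. Syk, the kinase below these receptors, was not called at 0.78 although its 3 SNI libraries lay above its 3 sham libraries.

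Fc receptors and the signalling proteins of immune receptors moved alongside, with 14 of 20 called higher, against 2.05% of all genes, and a median of 0.95. Without sham replicate 1 and without SNI replicate 3 the count was 9. Rasal3, a Ras regulator of blood cells, stood at 9.77, 9.35 and 9.86 CPM in SNI libraries and 3.12, 3.53 and 3.24 CPM in sham libraries (log2 fold change 1.54, SE 0.13, adjusted p = 2.5e-07). Pld4, an endolysosomal nuclease, rose by 1.26, and the Fc receptor genes Fcgr1, Fcgr2b, Fcgr3 and Fcer1g rose by 1.14, 1.12, 0.90 and 1.07. NADPH oxidase genes of the list split between Ncf1 and Cyba, called at 0.91 and 0.78, and Ncf4 and Cybb, not called at 0.92 and 0.32.

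In the complement system 4 of 16 genes tested rose, against 2.05% of all genes: the chains of the recognition molecule, C1qa, C1qb and C1qc, and Itgb2, a subunit of complement receptors. The Itgb2 call was lost without sham replicate 1, SNI replicate 3 or sham replicate 3 (adjusted p of up to 0.0729). The list's median was 0.25. C1qa stood at 75.0, 79.2 and 82.9 CPM in SNI libraries and at 29.5, 37.6 and 30.4 CPM in sham libraries (log2 fold change 1.29, SE 0.11, adjusted p = 2.5e-07), and its neighbours C1qb and C1qc on chromosome 4, between 136880129 and 136893065, rose by 1.27 and 1.37. C3, the central component, overlapped between groups at 21.2, 32.2 and 42.8 CPM in SNI libraries and 22.7, 47.2 and 29.4 CPM in sham libraries (-0.04, SE 0.35).

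Chemokine and phagocyte genes rose in part. Of 11 chemokine genes tested, 5 rose, against 2.05% of all genes, with a median of 1.08. Ccl7, Ccl2 and Ccl12, attractants of monocytes that lie side by side on chromosome 11 between 82035571 and 82103400, rose by 3.35, 2.26 and 1.69. The Ccl12 call was lost in 3 of the 6 fits without 1 library (adjusted p of up to 0.104). Ccl2 was at 1.43, 0.957 and 0.970 CPM in SNI libraries and at 0.136, 0.225 and 0.192 CPM in sham libraries. Ccr2, the receptor of monocytes for Ccl2, was not called at 0.10 and stood at 1.42 CPM in SNI libraries and 1.25 CPM in sham libraries on average. The 13 border macrophage and monocyte markers tested had none called, against 2.15% of all genes, and a median of 0.35. Among them Cd163 and Mrc1 were present at 2.74 to 4.91 and 4.35 to 10.2 CPM. The T cell gene Cd3e had 0 to 3 reads in a library.

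Of 19 genes of activated phagocytes 4 rose, against 2.05% of all genes: the cystatin gene Cst7 (2.01), Lag3 (1.78), and the lysosomal proteases Ctsd (0.54) and Ctsz (0.51). Lag3 was at 16.6, 14.2 and 15.6 CPM in SNI libraries and at 3.49, 5.65 and 4.46 CPM in sham libraries (adjusted p = 4.6e-07). Apoe, the lipid carrier, overlapped at 1278, 1467 and 1415 CPM in SNI libraries and 1194, 1425 and 1347 CPM in sham libraries, a log2 fold change of 0.07.

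Among mediators by which microglia act on pain circuits, 6 of 18 rose, against 2.05% of all genes, with a median of 0.39. Ctss, the secreted protease cathepsin S that frees fractalkine, was at 182, 151 and 170 CPM in SNI libraries and at 56.8, 77.7 and 60.1 CPM in sham libraries (log2 fold change 1.38, SE 0.12, adjusted p = 5.6e-07). Ptgs1, a cyclooxygenase, rose by 0.76, and the transcription factor gene Irf5 rose by 0.72. P2rx4, the ATP receptor channel, was at 19.8, 20.9 and 21.5 CPM in SNI libraries and 20.001, 19.1 and 16.7 CPM in sham libraries, and Bdnf, brain-derived neurotrophic factor, at 12.8, 13.6 and 9.70 CPM in SNI libraries and 11.6, 15.6 and 11.6 CPM in sham libraries. Both overlapped, with log2 fold changes of 0.16 (SE 0.09) and -0.10 (SE 0.16). Of 15 nucleotide and adenosine receptor genes and related enzymes, 5 rose, against 2.05% of all genes: Adora3 (1.39), P2ry6 (1.04), P2ry12, P2ry13 (0.80) and Entpd1 (0.46). The count was 2 without SNI replicate 2 or SNI replicate 3 and 3 without sham replicate 1 or sham replicate 3. The Adora3 call was lost without any 1 of the 6 libraries (adjusted p of 0.0504 to 0.119), and exons of another gene overlap 20.9% of it. Toll-like receptor and inflammasome genes had 9 of 20 called higher, against 2.05% of all genes, and a median of 0.80. Leading them were Ly86, also counted as a microglia identity gene, the adaptor Pycard (1.62), the DNA sensor Tlr9 (1.55) and Cd180 (1.52). That count was 5 without SNI replicate 2, SNI replicate 3, sham replicate 1 or sham replicate 3.

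**Figure D3:**
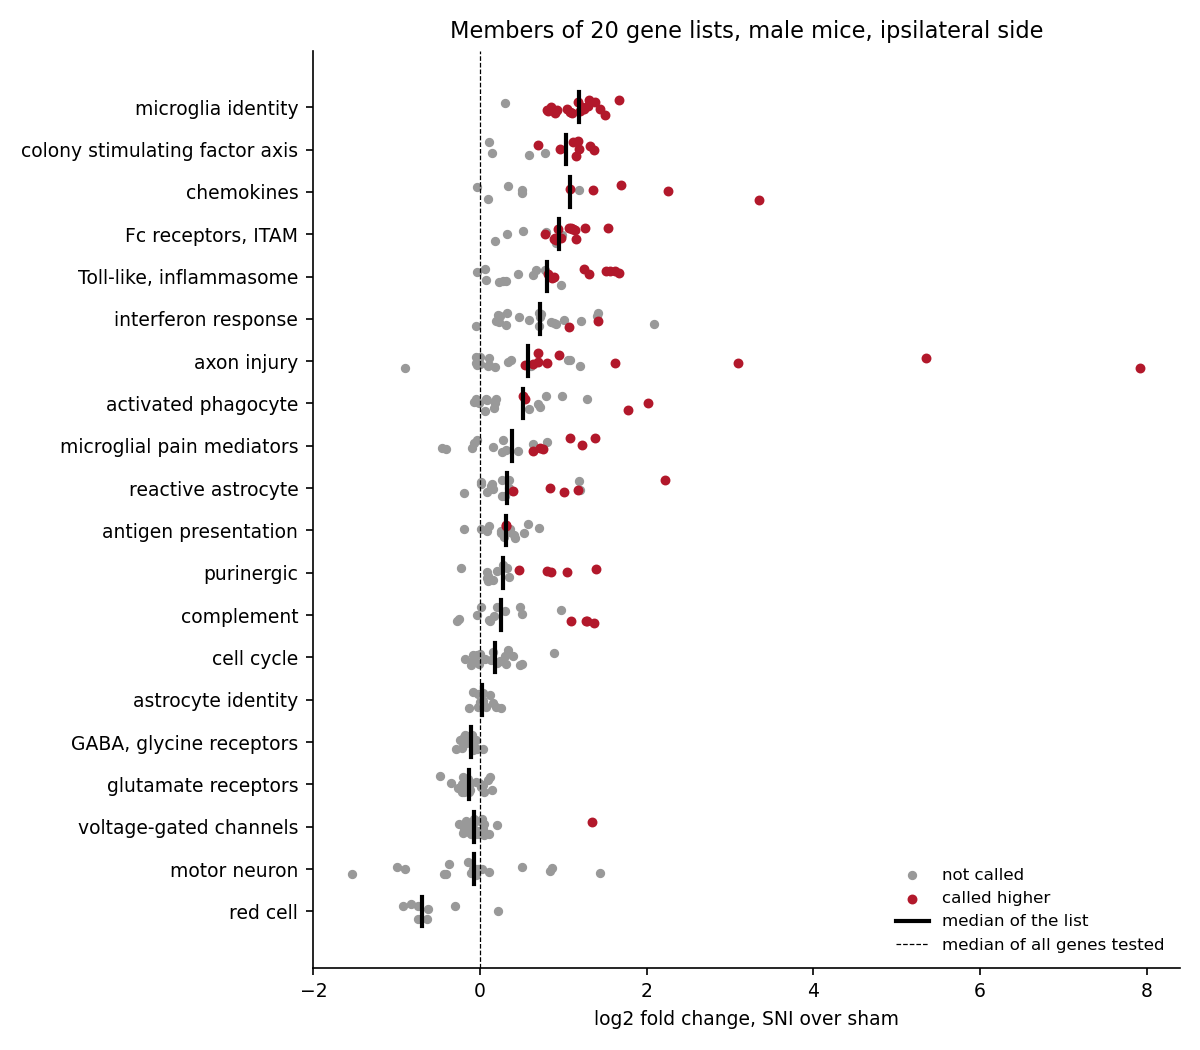
Log2 fold change of SNI over sham for each tested member of 20 gene lists, with called members in red, other members in grey and the median of each list as a black bar. Microglia identity genes sit between 0.30 and 1.67, and axon injury genes run up to 7.92. The GABA and glycine receptor list has a median of -0.11 and the glutamate receptor list -0.13, against 0.00 over all genes tested.

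Interferon-stimulated genes were mostly higher in SNI libraries with few calls. Of 23 tested, 2 were called higher, Irf7 and Trim30a, against 2.05% of all genes, with a list median of 0.72. In 19 of the 23 all SNI libraries lay above all sham libraries, against 10.7% of all genes. Irf7, the master regulator of the response, was at 6.27, 4.82 and 4.63 CPM in SNI libraries and at 2.10, 1.80 and 1.83 CPM in sham libraries (log2 fold change 1.42, SE 0.34, adjusted p = 0.0237). Its call was lost without any 1 of the 6 libraries (adjusted p of 0.0583 to 0.0962). SNI replicate 1 had the highest summed level of the list, 246 CPM against 208 and 207 CPM in the other SNI libraries and 158, 168 and 158 CPM in the sham libraries. The number called was 9 when the 6 libraries were fitted alone 7 with a term for the libraries titled 49 to 56, and 0 without SNI replicate 1 or sham replicate 3. Other named genes of this kind were Ifi204, a DNA sensor, and Slfn9, a Schlafen gene, with log2 fold changes of 1.93 and 2.37. The Ifi204 call was lost in 4 of the 6 fits without 1 library (adjusted p of up to 0.0962). Of 16 antigen presentation genes 2 were called, H2-D1 and Tapbp at 0.32 and 0.31, against 2.05% of all genes called higher, and neither was called without SNI replicate 2, SNI replicate 3 or sham replicate 3.

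**Figure D4:**
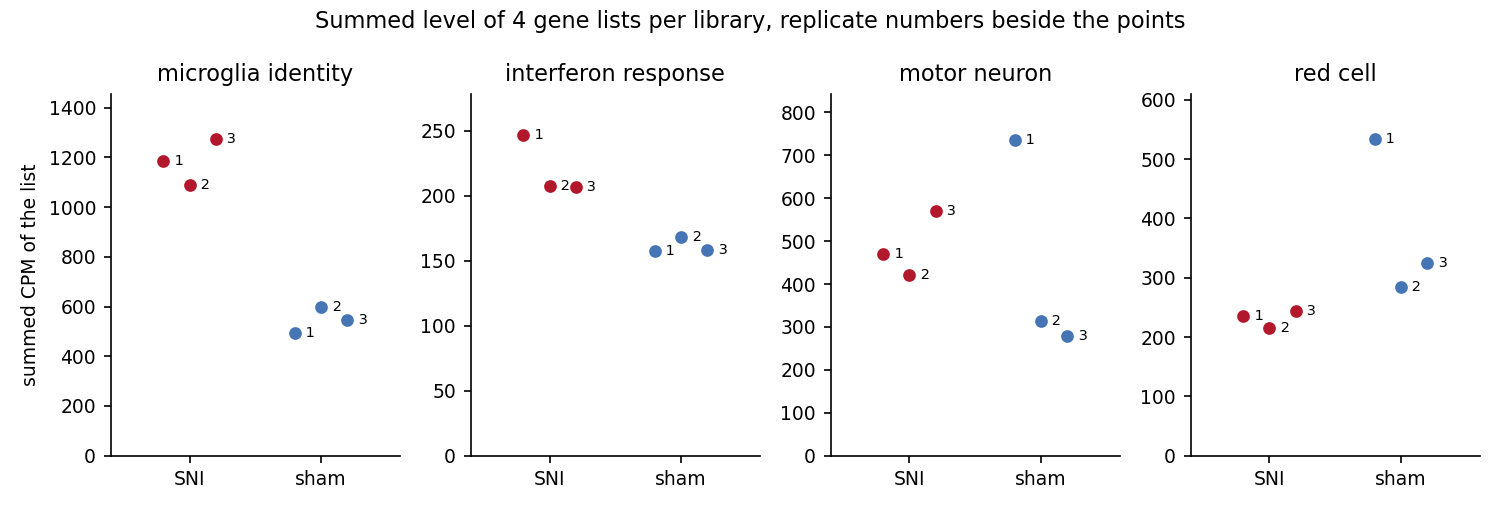
Summed CPM of the members of 4 gene lists in each male ipsilateral library, SNI (red) left of sham (blue), with the replicate number beside each point. Microglia identity sums are 1087 CPM or more in SNI libraries and 599 CPM or less in sham libraries, and sham replicate 1 is the highest library for motor neuron and red cell markers.

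Genes linked to astrocytes rose in part. None of 14 astrocyte identity genes was called (median 0.03), against 2.15% of all genes. Of 20 reactive astrocyte genes 5 rose (median 0.32), against 2.05% of all genes. Serpina3n, a secreted protease inhibitor, was at 94.9, 84.1 and 74.2 CPM in SNI libraries and at 49.6, 46.4 and 44.6 CPM in sham libraries, a rise of 0.84 (SE 0.11, adjusted p = 8.1e-05). The hyaluronan receptor gene Cd44 rose by 1.18, the feedback inhibitor Socs3 by 1.01 and the transcription factor gene Stat3 by 0.39, with Timp1 as the fifth. Gfap, the astrocyte filament, overlapped at 1191, 1381 and 1643 CPM in SNI libraries and 859.9, 1464 and 1151 CPM in sham libraries (0.30, SE 0.18). The count was 2 without SNI replicate 2 or sham replicate 3, and 3 without SNI replicate 3 or sham replicate 1. No member of the cell cycle list, 20 genes with a median of 0.18, was called by limma, against 2.15% of all genes. The marker of dividing cells Mki67 stood at 2.50, 2.66 and 5.10 CPM in SNI libraries and 2.58, 2.12 and 3.30 CPM in sham libraries.

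Neuronal genes outside the injury programme had few calls. None of 20 GABA and glycine receptor and chloride transport genes was called, but 19 of the 20 had values below 0 (median -0.11), and in 8 all SNI libraries lay below all sham libraries, against 8.53% of all genes. Glrb, the beta subunit of the glycine receptor, was at 304, 294 and 281 CPM in SNI libraries and 372, 314 and 308 CPM in sham libraries (-0.17, SE 0.08, adjusted p = 0.336), and Gad2, an enzyme that makes GABA, overlapped at -0.03. None of 22 glutamate receptor genes was called (median -0.13), and of 28 voltage-gated channel genes the sodium channel gene Scn9a rose while the list's median was -0.07. Of all genes tested 2.15% were called, so few or no calls in lists of this size are near the share of all genes. Scn9a was at 32.3, 23.2 and 18.4 CPM in SNI libraries and at 8.75, 8.87 and 10.7 CPM in sham libraries (1.35, SE 0.24, adjusted p = 0.00201). Beside it, Ret, a receptor for glial cell line-derived factors that motor and sensory neurons share, stood at 157, 158 and 146 CPM in SNI libraries and 114, 70.8 and 70.2 CPM in sham libraries (0.89, adjusted p = 0.0416, and up to 0.192 with 1 library left out). Ngfr, the neurotrophin receptor p75 that Schwann cells and injured motor neurons carry, rose by 1.34, while the other 12 Schwann cell genes were not called. Among targets of analgesic drugs, 2 of 25 rose, against 2.05% of all genes: Ptgs1 and Slc6a4, the serotonin transporter. Slc6a4 was at 1.13, 1.13 and 0.688 CPM in SNI libraries and at 0.0678, 0.0643 and 0.0641 CPM in sham libraries (3.02, SE 0.54, adjusted p = 0.00183). Its sham values rest on 2 reads in each library.

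Of the 18 genes called lower, 2 were past 2-fold, both under 1 CPM in every library, and none belonged to a gene list. Those named by rule were Magohb (an exon junction protein), Hat1 (a histone acetyltransferase), Ano3 (an anoctamin), Fam19a1, Acyp2, Chgb, Cox6c (a subunit of cytochrome oxidase), Nudt12, Pclo and Dpp10, with log2 fold changes of -0.49 to -0.27. Chgb, a granin of dense core vesicles, was at 297, 292 and 269 CPM in SNI libraries and at 334, 381 and 362 CPM in sham libraries (-0.33, SE 0.08, adjusted p = 0.0242). Pclo, the presynaptic scaffold piccolo, was at 179, 158 and 162 CPM in SNI libraries and at 196, 203 and 207 CPM in sham libraries (-0.28, SE 0.07, adjusted p = 0.0457). Dpp10, a partner of potassium channels, was at 86.8, 83.6 and 82.8 CPM in SNI libraries and at 99.6, 103 and 104 CPM in sham libraries (-0.27, SE 0.06, adjusted p = 0.0155). Groups were apart in each, but all 10 calls were lost at least once when 1 library was left out, and the count of genes called lower ran from 5 without SNI replicate 3 to 81 without SNI replicate 1. The haemoglobin gene Hba-a1 stood at 40.5, 35.04 and 43.1 CPM in SNI libraries and at 113, 50.6 and 59.6 CPM in sham libraries, the highest in sham replicate 1, and was not called.

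The same contrast in female mice asks whether the response was shared. It uses 3 ipsilateral SNI and 3 ipsilateral sham libraries of wild-type C57BL/6 females at the same day, and it called 81 genes higher (0.449%) and 6 lower (0.0332%). Of the 371 genes higher in males, 80 were called higher in females, which is 21.6% of the male list and 98.8% of the female one. Over the 371 the median was 0.88 in males, whose values chose them, and 0.42 in females. Of the 371, 90.8% had the same sign in females, against 49.7% of all genes tested. Microglia identity genes had 16 of 20 called in females with a median of 0.86, and C1qb stood at 1.27 in males and 1.10 in females. Axon injury genes had 10 of 26 called in males and 1, Gpr151, in females, with medians of 0.57 and 0.28. Interferon-stimulated genes had medians of 0.72 in males and 0.01 in females, and motor neuron markers -0.07 in males and -1.50 in females.

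Replicate 1 of the female SNI libraries differed from the others. Its Atf3 stood at 1.02 CPM, against 36.1 and 15.2 CPM in the other female SNI libraries and 1.09 to 1.14 CPM in female sham libraries, and its Sprr1a at 0.229 CPM, against 47.1 and 20.4 CPM in the other female SNI libraries. Its microglial gene Ctss stood at 112 CPM, against 157 and 132 CPM in the other female SNI libraries and 59.5, 59.2 and 48.9 CPM in female sham libraries. Its Chat was 3.69 CPM, the lowest of the female ipsilateral libraries, and the part of motor neuron content in these values was not tested. Whether this library matches its label was not tested either. Without it, the female contrast called 101 genes higher and 1 lower, with 18 of 20 microglia identity genes and 3 of 25 axon injury genes called higher. The library was left out for its Atf3 and Sprr1a, so the axon injury count is not independent of that choice.

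No gene passed the limma test of the difference between the male and the female response (smallest adjusted p = 0.184), with 1652 genes at an unadjusted p under 0.05. The count was also 0 without female SNI replicate 1, with 832 genes at an unadjusted p under 0.05, and with voom weights. The genes with the smallest p were Myadm, Mchr1, Angptl2, Itga7, Eepd1, Serpina3n, Trim6 and Cyp1b1. Angptl2, a secreted angiopoietin-like protein, was at 21.7, 19.9 and 20.8 CPM in male SNI libraries and 7.42, 6.33 and 5.19 CPM in male sham libraries. In females it was at 5.07, 11.7 and 8.58 CPM in SNI libraries and 8.39, 7.52 and 7.04 CPM in sham libraries, and the male effect minus the female effect was 1.66. Itga7, a laminin-binding integrin, differed by 1.01, Myadm, a membrane protein of myeloid cells among others, by 0.53, Mchr1, a receptor for melanin-concentrating hormone, by 0.74, and Serpina3n by 0.79. For these genes the male groups were apart and the female groups overlapped, and the limma test of the difference did not pass.

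**Figure D5:**
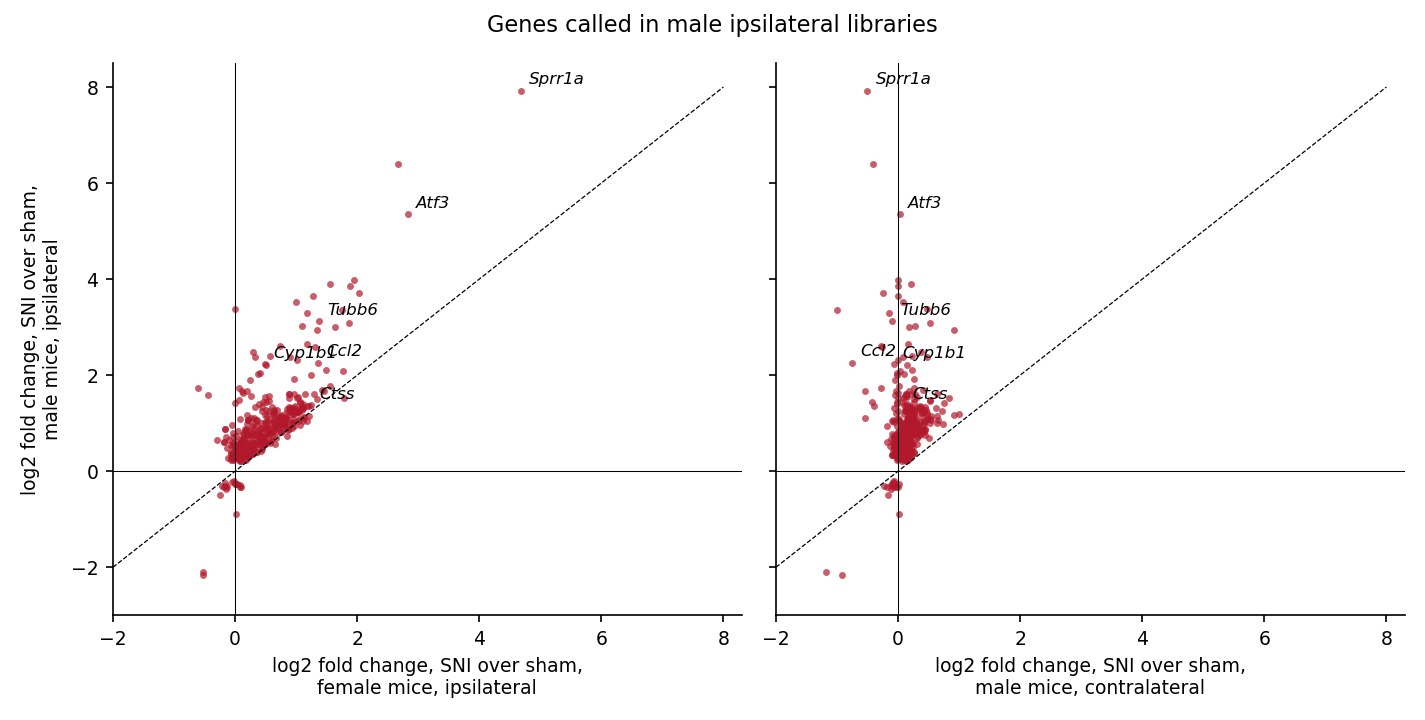
Log2 fold change of SNI over sham for the 389 genes called in male ipsilateral libraries (y axis) against the same genes in female ipsilateral libraries (left panel, x axis) and in male contralateral libraries (right panel, x axis), with the line of equal values dashed. Most points lie above that line on both panels, with medians over the 371 genes called higher of 0.42 in females and 0.13 on the contralateral side.

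The unoperated side of male mice, 3 SNI and 3 sham libraries, shows how far the response reached. There no gene was called by limma (smallest adjusted p = 0.200, with 832 genes at an unadjusted p under 0.05). The 371 genes had a median of 0.13 contralaterally, and 80.9% had the same sign as on the operated side, against 66.2% of all genes tested. Atf3 stood at 0.962, 1.04 and 1.05 CPM in contralateral SNI libraries and at 1.01, 1.09 and 0.891 CPM in contralateral sham libraries. Ctss stood at 49.2, 50.7 and 55.5 CPM in contralateral SNI libraries and at 47.6, 51.5 and 45.9 CPM in contralateral sham libraries. The SNI effect differed between sides in 55 genes, all higher on the ipsilateral side (0.305%), and 12 of these were microglia identity genes. Among those with the smallest p were Rasal3, Lag3, C1qc, C1qb, C1qa, Ctss and Jpt1, with ipsilateral minus contralateral effects of 0.71 to 1.77. The count of genes differing between sides was 31 without SNI replicate 1. The fit without the libraries titled 49 to 56 kept a single male SNI library on each side, too few to test the difference.

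Among interferon genes, Irf7 was at 9.32 CPM in contralateral SNI replicate 1, against 2.08 and 3.16 CPM in the other contralateral SNI libraries and 2.47, 2.33 and 2.13 CPM in contralateral sham libraries. The list had a median of 0.47 contralaterally, and none of its 23 genes was called for a difference between sides, against 0.305% of all genes.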

How the data were processed

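The authors deposited for each library a count of reads per gene identifier, with no normalization. Per the submitters' processing notes, reads were aligned with STAR, and the builds named are GRCm38, mm10 and Rnor_6.0. The program that counted the reads, and whether it used strand, is not given in the sources used here; neither is its annotation. The 5 entries per file that name no gene were left out. Genes took 74.0% to 76.1% of all entries in the 6 libraries. Mouse symbols and positions are those of GENCODE on GRCm38, and 40254 of 41388 identifiers matched, with 99.8% of the gene reads. The file format did not let the count column be recorded as counts, so the count-based test planned was not run and limma's trend method took its place.

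Scaling of library sizes used the trimmed mean of M-values (30% of ratios and 5% of levels trimmed, factors 0.950 to 1.04). Genes with about 10 counts in at least 3 libraries and a total of at least 15 were kept. Log2 CPM with a prior count of 2, which understates changes of low genes, was fitted for 8 groups of sex, side and surgery over 24 mouse libraries in limma 3.58.1, run in R 4.3.3, with the robust option of its empirical Bayes step. Tests were two-sided with Benjamini-Hochberg adjustment over all genes tested, at 0.05. Fold changes carry model standard errors (SE). Python 3.11.15, pandas 2.3.3, numpy 2.4.6 and matplotlib 3.10.9 handled files and figures. Chi-square comparisons of counts between replicates gave 6.26 to 16.4 per degree of freedom, so none was treated as a duplicate. The procedure was tested on simulated data.

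The 39 gene lists, the named-gene rule and the comparisons were chosen with earlier results of these data known. Some genes belong to more than 1 list, among them Ly86, Ctss, Ptgs1, Gal, Scn9a and Csf3r, so the list counts are not independent. The rule named the 20 called genes with the largest rises and the 10 with the largest falls with at least 1 CPM and no overlap between groups, up to 4 called members of each list, 31 fixed genes, and the 8 genes of smallest p in each difference between sexes and sides. List members outside it, and the neighbours of Sprr1a, were named after their values were seen, and some genes the rule named are not reported here. The fit without female SNI replicate 1 and the list counts under each alternative were added after the data were seen.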

Additional observations from a re-analysis of the deposited data

Results flagged for a closer look

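The effect of SNI differed between the operated and the other side of male mice in 55 genes by the limma test of the difference itself, and the named genes given here were among them. The difference, ipsilateral minus contralateral on the log2 scale, was 5.32 for Atf3, 4.36 for Ccl7, 3.67 for Fst, 3.02 for Ccl2, 2.88 for Procr, 2.56 for Gpr151 and 2.30 for Cyp1b1. Among genes of microglia and other immune cells it was 1.77 for Lag3, 1.54 for Rasal3, 1.28 for Ctss, 1.24 for Itgam, 1.23 for C1qc, 1.15 for C1qa, 1.12 for C1qb, 1.10 for Tmem119, 0.94 for Csf1r and 0.93 for Cx3cr1. For Jpt1, a gene of microtubule regulation, it was 0.71.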

How the results depend on the processing

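Under other scaling, filters, prior counts, voom weights or sets of groups in the fit, with a term for the libraries titled 49 to 56, or with the motor neuron or red cell level as a covariate, the count of genes called ran from 323 to 567 and that of genes called higher from 318 to 504, against 389 and 371. It fell to 82 and 80 without the libraries titled 49 to 56. Leaving out 1 library gave 225 to 383 genes in all, 220 to 308 higher and 5 to 81 lower. Without female SNI replicate 1 the counts were 412, 375 and 37. Genes called lower, 18 in the main test, numbered 30 with at least 1 CPM in 3 libraries and 29 over the 12 male libraries. They numbered 5 with a term for the libraries titled 49 to 56 and 63 with the motor neuron level as a covariate. Genes differing between sexes numbered 3 without a filter and 0 otherwise. Genes differing between sides, 55 in the main test, numbered 107 with the motor neuron covariate, 31 to 51 with 1 library left out and 77 without female SNI replicate 1. The causes were not tested. Of 77 named genes called higher, 58 kept the call in all 6 fits without 1 library and 19 lost it at least once. No result changed sign while called. No paired analysis was possible because the labels give neither replicate numbers nor animals, and the numbers used here only name libraries in their deposited order. At these depths genes under 1 CPM rest on few reads, as the 2 reads of Slc6a4 in each sham library show.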
